A study of Homo sapiens with 2 samples.

Results

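The PI3K-AKT and LKB1 pathways were followed through 9 of their genes in H460, a line grown from a human lung carcinoma of the large-cell kind. The genes were chosen by name, as genes around PIK3CA and STK11, which are known to be mutated in this line, and all 9 were found among the 22965 genes listed. Gene counts came from 1 RNA-seq library of cells in which the pSin-puro vector delivered PKP2, called the PKP2 library, and 1 library of cells with the vector alone, called the vector library. Both cultures were H460 cells at passage 5, grown in DMEM with serum, so both carry the same mutated PIK3CA and STK11. The study asked which genes lie downstream of PKP2, whose product, plakophilin 2, is an armadillo protein that builds desmosomes, junctions between epithelial cells.

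Class I PI3 kinases are pairs of a p110 catalytic subunit and a regulatory subunit of the p85 family, and they make the membrane lipid PIP3. PIP3 gathers the kinases PDPK1 and AKT at the membrane, where PDPK1 phosphorylates AKT. LKB1, the product of STK11, is a tumour suppressor kinase that works with the pseudokinase STRAD and the scaffold CAB39, and it activates AMPK and a family of related kinases. The counts do not tell mutant from normal alleles and say nothing of protein or kinase activity.

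The PKP2 library held 20319137 counts and the vector library 23513304, with 21830 and 22378 genes above 0. PKP2 itself had 1330 counts in the PKP2 library, against 181 in the vector library, 8.66-fold higher in the direction of the labels. Of the epithelial markers fixed for the line, 4 of 5 were listed, and their summed level was 1233 CPM (counts scaled to a common library size) in the PKP2 library and 1223 CPM in the vector library, nearly all of it keratins, since EPCAM had only 16 and 28 counts. The near-equal sums hold opposite differences: KRT19 was 2.11-fold higher, at 578 CPM in the PKP2 library and 274 CPM in the vector library, while KRT8 was at 465 and 697 CPM and KRT18 at 188 and 251 CPM. Of the markers of fibroblasts, blood and endothelium, 2 of 6 were listed, COL1A1 and PDGFRB, at a summed 12.7 CPM in the PKP2 library and 10.2 CPM in the vector library, where COL1A1 was at 2.38 and 5.56 CPM and PDGFRB at 10.3 and 4.68 CPM. The other 4 of these, and CDH1 and CDKN2A, were not among the genes listed, so their levels are unknown. With 1 library per group there is no replicate check and no test across samples. Ratios are PKP2 over vector on the log2 scale, their 95% intervals are exact binomial intervals for counting error only, and a gene was called higher or lower at a 2-fold ratio. In bulk RNA, fewer cells with a transcript and less of it per cell cannot be told apart.

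PIK3R1 stood apart from the rest, with 2.71 times the level in the PKP2 library, and was the only one of the 9 past 2-fold. PIK3R2, its paralog, was 1.47-fold lower, a log2 ratio of -0.55 that was -0.07 once the trend of ratios with transcript GC content was subtracted. STK11 was 1.58-fold lower, AKT2 1.40-fold lower and AKT1 1.14-fold lower, while PRKAA1, PIK3CB, PDPK1 and PIK3CA were 1.16-fold to 1.40-fold higher. The interval of each of the 9 ratios lay wholly on one side of 0, with 5 above and 4 below. With that correction the 8 genes within 2-fold lay between -0.24 and 0.34 on the log2 scale.

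The windows of 250 bases upstream of annotated starts of 4 genes are shown because they include the gene that differed most (PIK3R1), its paralog, and the pair of genes the set was built around. They are RefSeq sequences of build GRCh38.p14, written 5′ to 3′ on the strand of the gene. Capitals mark the letters GGGCGG (a GC box), TGACG (the half-site of CREB) and TGTTTAC (bound by FOXO factors), searched on both strands; in these 5 windows no match overlaps another.
PIK3R1, the outermost of 4 starts, chr5:68215506-68215755, plus strand: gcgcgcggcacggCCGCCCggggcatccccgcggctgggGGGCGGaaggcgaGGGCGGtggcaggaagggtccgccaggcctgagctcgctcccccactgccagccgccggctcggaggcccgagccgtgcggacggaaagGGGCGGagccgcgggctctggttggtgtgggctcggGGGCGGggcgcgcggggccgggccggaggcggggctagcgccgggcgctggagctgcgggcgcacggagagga
PIK3R1, the third start, chr5:68290414-68290663, plus strand: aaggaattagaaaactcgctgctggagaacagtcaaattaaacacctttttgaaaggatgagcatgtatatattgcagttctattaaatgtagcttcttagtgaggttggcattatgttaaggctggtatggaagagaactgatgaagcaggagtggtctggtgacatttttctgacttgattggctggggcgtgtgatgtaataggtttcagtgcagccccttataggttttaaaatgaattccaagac
PIK3R2, its 1 start, chr19:18152913-18153162, plus strand: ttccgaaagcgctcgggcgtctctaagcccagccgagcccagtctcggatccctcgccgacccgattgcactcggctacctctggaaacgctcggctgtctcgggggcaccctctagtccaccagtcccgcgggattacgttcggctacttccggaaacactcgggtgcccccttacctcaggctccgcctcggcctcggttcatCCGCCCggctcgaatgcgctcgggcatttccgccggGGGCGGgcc
PIK3CA, its 1 start, chr3:179148107-179148356, plus strand: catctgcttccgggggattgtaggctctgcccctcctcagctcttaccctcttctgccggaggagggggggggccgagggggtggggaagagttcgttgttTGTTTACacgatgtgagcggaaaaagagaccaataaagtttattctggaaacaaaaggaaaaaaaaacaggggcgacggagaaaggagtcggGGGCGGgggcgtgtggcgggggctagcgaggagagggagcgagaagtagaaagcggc
STK11, its 1 start, chr19:1205528-1205777, plus strand: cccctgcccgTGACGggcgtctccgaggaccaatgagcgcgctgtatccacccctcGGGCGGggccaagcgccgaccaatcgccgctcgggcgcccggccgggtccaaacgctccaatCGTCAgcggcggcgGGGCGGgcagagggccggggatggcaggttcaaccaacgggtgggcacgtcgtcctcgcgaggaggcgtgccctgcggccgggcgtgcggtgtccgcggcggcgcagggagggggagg

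All 9 genes had a window in the RefSeq table, 15 windows in all. At the outermost starts the GC content lay between 57.6% (PIK3CA) and 83.2% (AKT1). At the inner starts of these genes it lay between 37.2% (PIK3CB) and 64% (AKT2). The median over all 35116 windows was 58%, which is not a median of outermost starts alone. PIK3R1 has 4 annotated starts, from which p85 alpha and the shorter p55 alpha and p50 alpha are made; its outermost window is 81.6% GC with 5 GC boxes, and the window of the third start is 39.6% GC with none. The gene counts pool transcripts of all starts, so which start the added PIK3R1 counts came from cannot be read from them. A GC box was found in at least 1 window of all 9 genes and in 42.6% of all windows. The CREB half-site was found upstream of STK11 (2 matches) and AKT2 (1 match), and in 21.2% of all windows, and the FOXO letters upstream of PIK3CA alone among the 9, and in 2.98% of all windows. For each motif the 9 genes are counted per gene, over all their windows, while the shares are per window, so the values are not like for like. A match of letters is a description of the window, not a binding site.

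PIK3R1 (ENSG00000145675, chromosome 5) encodes the alpha regulatory subunit, which stabilizes p110, holds back its basal activity and brings it to phosphorylated receptors and adaptors. It had 2007 counts in the PKP2 library, against 873 in the vector library, or 99.7 CPM and 36.8 CPM. The ratio was 1.44 (interval 1.32 to 1.55), a fold of 2.71 (interval 2.50 to 2.94). Only 0.764% of the 31-base stretches of its transcripts also occur in other genes. Of the 15991 genes that averaged 10 counts or more, 152 (0.951%) had a ratio as high or higher. Of the 100 genes most like it in transcript length and GC content, 4 did, and the median of those 100 was 0.28.

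PIK3R2 (ENSG00000105647, chromosome 19) encodes the beta regulatory subunit, and had 416 counts in the PKP2 library, against 720 in the vector library, a ratio of -0.55 (interval -0.73 to -0.38). With the GC correction it was -0.07, and 33 of the 100 genes most like it in length and GC content had a ratio as low or lower. Most of its 31-base stretches (86.5%) are shared with other genes, chiefly with ENSG00000268173, which overlaps it on the same strand and had 26 counts in the PKP2 library and 18 in the vector library. Summed over both, the ratio was -0.50 (interval -0.68 to -0.33). The third paralog, PIK3R3, which encodes the gamma subunit, had 429 and 497 counts in the PKP2 and vector libraries, a ratio of 0.02 (interval -0.17 to 0.21), within counting error.

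Expressed per kilobase of transcript, PIK3R1 made up 61.4% of the summed level of PIK3R1, PIK3R2 and PIK3R3 in the PKP2 library, against 31.8% in the vector library. PIK3R2 made up 22.1% in the PKP2 library and 45.6% in the vector library, and PIK3R3 16.4% and 22.6%. By these counts PIK3R1 led in the PKP2 library and PIK3R2 in the vector library. The sources used here do not say how shared reads were counted. If they were dropped, the level of PIK3R2, 86.5% of whose stretches are shared, is understated in both libraries. These shares and this order are therefore uncertain. As a share of the raw counts of these 3 genes, PIK3R1 had 70.4% (exact Clopper-Pearson interval 68.7% to 72.0%) of 2852 in the PKP2 library and 41.8% (39.6% to 43.9%) of 2090 in the vector library. The quotient of PIK3R1 over PIK3R2 counts was 4.82 in the PKP2 library and 1.21 in the vector library, a 3.98-fold difference (interval 3.43 to 4.61), or 1.99 on the log2 scale and 1.32 after a correction for GC content. The quotient of PIK3R1 over PIK3CA counts was 3.19 in the PKP2 library and 1.36 in the vector library. PIK3R5, the regulatory subunit that pairs with p110 gamma in blood cells, had 1 count in the PKP2 library and 10 in the vector library and lay under the count minimum.

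**Figure D1:**
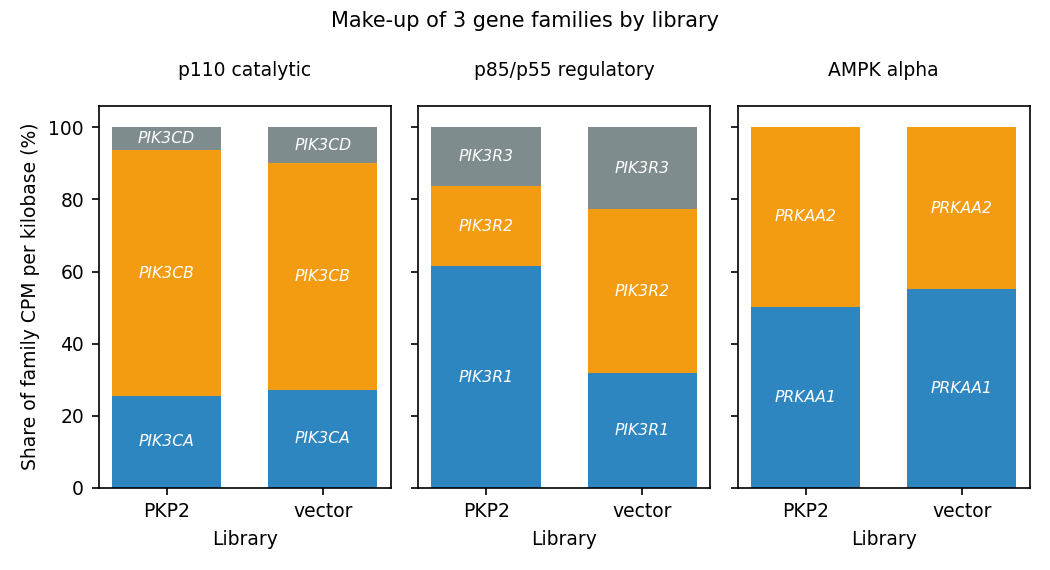
Share of each gene in the summed CPM per kilobase of its family (percent, vertical axis) in the PKP2 and vector libraries, for p110 catalytic subunits, p85/p55 regulatory subunits and AMPK alpha, with 1 library per bar. PIK3R1 holds 61.4% of the regulatory subunits in the PKP2 library and 31.8% in the vector library. In the other families plotted the widest difference is that of PIK3CB, 5.27 percentage points. How shared reads were counted is unknown, so the shares of the regulatory subunits, where PIK3R2 shares most of its stretches, are uncertain.

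The catalytic subunits differed less. PIK3CB (ENSG00000051382, chromosome 3), which encodes p110 beta, had 1096 counts in the PKP2 library and 962 in the vector library, a ratio of 0.42 (interval 0.30 to 0.55). PIK3CA (ENSG00000121879, chromosome 3), which encodes p110 alpha, had 629 and 641 counts in the PKP2 and vector libraries, a ratio of 0.21 (interval 0.05 to 0.37). Its ratio changed sign with the GC correction, to -0.10. PIK3CA shares 35.6% of its 31-base stretches with KCNMB3, which overlaps it on the opposite strand and had 108 counts in the PKP2 library and 121 in the vector library; summed over both genes the ratio was 0.19. PIK3CD, which encodes the p110 delta of white blood cells, had 91 counts in the PKP2 library and 133 in the vector library, a ratio of -0.31 (interval -0.71 to 0.08). Per kilobase, PIK3CB made up 68.1% of the 3 catalytic transcripts in the PKP2 library and 62.9% in the vector library, PIK3CA 25.4% and 27.3%, and PIK3CD 6.43% and 9.89%. By these counts PIK3CA was thus less abundant per length than PIK3CB in both libraries.

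PDPK1 (ENSG00000140992, chromosome 16), the kinase that phosphorylates AKT on its activation loop, had 1897 counts in the PKP2 library and 1846 in the vector library, a ratio of 0.28 (interval 0.18 to 0.37). Of its 31-base stretches, 36.5% also occur in other genes, most in its pseudogene PDPK2P, which had 110 counts in the PKP2 library and 101 in the vector library. Smaller parts occur in another pseudogene, ENSG00000215154 (400 and 406 counts in the PKP2 and vector libraries), and in the antisense gene ENSG00000269937 (132 and 123 counts). Summed over the 4 genes, the ratio was 0.27 (interval 0.19 to 0.35).

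AKT1 (ENSG00000142208, chromosome 14), the AKT paralog known for its part in cell growth and survival, had 2612 counts in the PKP2 library and 3505 in the vector library, a ratio of -0.19 (interval -0.26 to -0.11). With the GC correction it was 0.07, above 0. AKT2 (ENSG00000105221, chromosome 19), the paralog known for its part in insulin-driven glucose uptake, had 1204 counts in the PKP2 library and 1984 in the vector library, a ratio of -0.48 (interval -0.59 to -0.38), and -0.24 with the GC correction. The quotient of AKT2 over AKT1 counts was 0.461 in the PKP2 library and 0.566 in the vector library, 0.814 as large in the PKP2 library (interval 0.745 to 0.890). The antisense gene that overlaps AKT1, ENSG00000258430, had 2 counts in each library.

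STK11 (ENSG00000118046, chromosome 19) had 421 counts in the PKP2 library and 783 in the vector library, a ratio of -0.66 (interval -0.83 to -0.49), the lowest of the 9. It is also among the most GC-rich, with a transcript of 63.2% GC, and with the GC correction its ratio was -0.22. The 100 genes most like it in length and GC content had a median of -0.43, and 17 of them had a ratio as low or lower. The partners of LKB1 had ratios near 0 or above it: CAB39, the scaffold MO25 alpha, was at 0.29 (2071 counts in the PKP2 library, 1990 in the vector library), STRADA at -0.04 (339 and 412 counts) and STRADB at 0.06. With the GC correction CAB39 was at 0.14, STRADA at 0.06 and STRADB at -0.04. STRADA shares 17.8% and STRADB 29.8% of their 31-base stretches with other genes.

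PRKAA1 (ENSG00000132356, chromosome 5), which encodes the alpha 1 catalytic subunit of AMPK, the energy sensor that LKB1 activates, had 2945 counts in the PKP2 library and 2479 in the vector library, a ratio of 0.49 (interval 0.41 to 0.56). With the GC correction it was 0.19. PRKAA2, the alpha 2 subunit, had 5358 counts in the PKP2 library and 3701 in the vector library, a ratio of 0.77 (interval 0.71 to 0.83), and 0.47 with the GC correction. Per kilobase the alpha subunits were nearly level: PRKAA2 made up 49.8% of the pair in the PKP2 library and 44.8% in the vector library. The beta and gamma subunit genes PRKAB1, PRKAB2, PRKAG1 and PRKAG2 were all within 0.2 of 0, the farthest being PRKAG2 at 0.18.

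Per kilobase of the principal transcript, AKT1 and PRKAA1 were the highest of the 9 genes in both libraries and PIK3CA the lowest. AKT1 had 33.1 CPM per kilobase in the PKP2 library and 37.7 in the vector library, PRKAA1 28.7 and 20.5, and PIK3CA 3.44 and 2.97. PIK3R1 held rank 3 of 9 in the PKP2 library, at 14.2 CPM per kilobase, and rank 8 in the vector library, at 5.25. In the PKP2 library the rest ran from PDPK1 (13.0) through AKT2 (11.3), PIK3CB (9.20) and STK11 (8.01) to PIK3R2 (5.12), and in the vector library from AKT2 (15.8) through STK11 (12.6), PDPK1 (10.7) and PIK3R2 (7.52) to PIK3CB (6.85). Neighbours in this order whose counting intervals overlapped were PIK3R1 and PDPK1, and PIK3CB and STK11, in the PKP2 library, and PIK3R2 and PIK3CB in the vector library; every other pair of neighbours was farther apart than these intervals. With the longest transcript of each gene, a setting added after the data were seen, AKT1 came after PRKAA1, at 15.4 CPM per kilobase in the PKP2 library and 17.6 in the vector library, and STK11 after PDPK1 in the vector library (9.29 CPM per kilobase). Levels of PIK3R2, PDPK1 and PIK3CA also depend on how shared reads were counted, so their places in the order are uncertain.

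**Figure D2:**
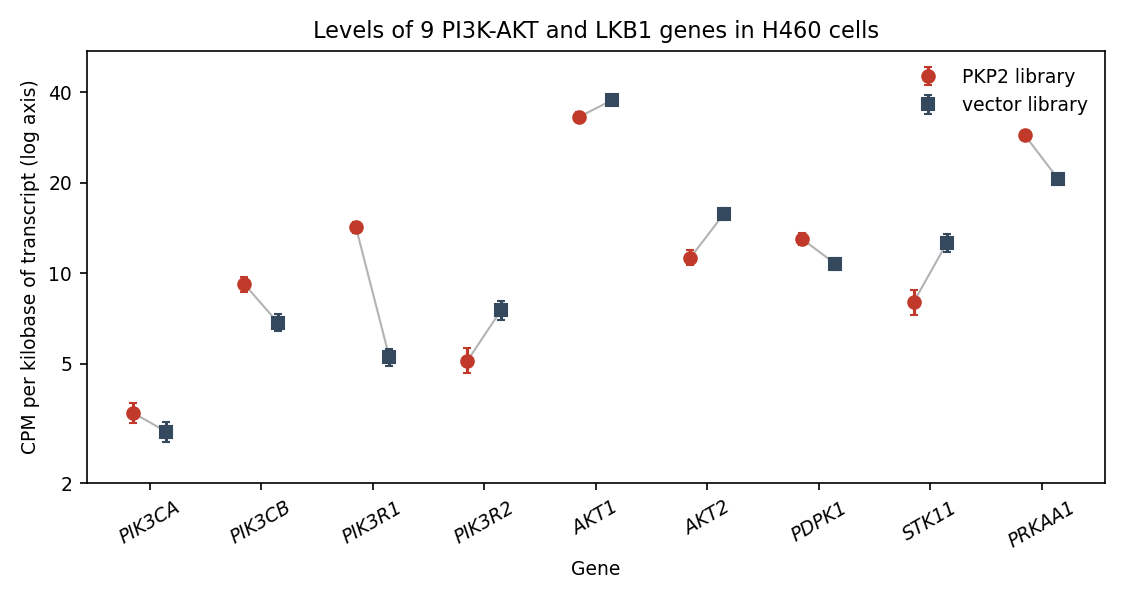
Levels of the 9 genes as CPM per kilobase of transcript (log axis) in the PKP2 library (red circles) and the vector library (dark squares), with 95% Poisson intervals for counting error only and 1 library per group. PIK3R1 is at 14.2 in the PKP2 library and 5.25 in the vector library, the widest gap of the 9.

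All 9 genes passed the count minimum, with 416 to 3505 counts in a library, and 1 was called higher, none lower and 8 within 2-fold. In all 15991 genes that averaged 10 counts or more, 2.47% passed 2-fold on the higher side and 4.61% on the lower, 7.08% together. In the 7454 genes that averaged 500 counts or more, a bound nearer to the counts of the 9 and chosen after the data were seen, 1.21% passed on the higher side and 0.953% on the lower, 2.16% together. At 1.5-fold, PIK3R1 was still the only one of the 9 called higher (6.87% of all genes were) and STK11 the only one called lower (12.9% of all genes were), where 19.7% of all genes were called in either direction. The median ratio of the 9 was 0.21, against -0.03 over all genes. With 1 call in 9 genes, nothing is read from the share.

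Ratios in these libraries varied with the GC content of the transcript. Across 11610 genes that averaged 100 counts or more, Spearman's rho between ratio and GC content was -0.61, a description across genes of the same 2 libraries; the 1161 genes lowest in GC had a median ratio of 0.25 and the 1161 highest one of -0.47. PIK3CA, PRKAA1, PIK3CB and PIK3R1, with 34.8% to 40.3% GC, had ratios above 0, as did PDPK1 with 51.9%. AKT2, AKT1, STK11 and PIK3R2, with 58.3% to 64.2% GC, had ratios below 0. After a lowess curve on GC content was subtracted, PIK3R1 was at 1.25, past 2-fold, as were 2.35% of all genes on the higher side, 3.49% on the lower and 5.85% in either direction. The other 8 then lay between -0.24 (AKT2) and 0.34 (PDPK1), where PDPK1 alone of these 8 was farther from 0 than before, and the median of the 9 was 0.07. PIK3CA and AKT1 changed sign. What set the trend with GC content in these libraries was not tested.

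**Figure D3:**
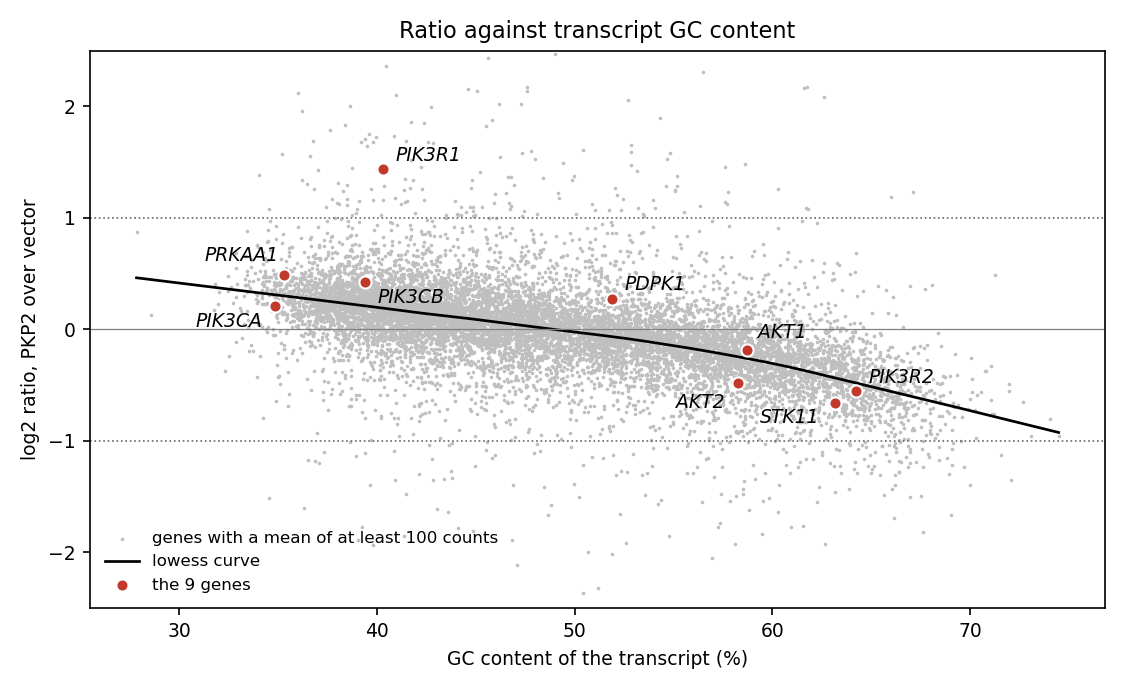
Log2 ratio of PKP2 over vector against transcript GC content (percent) for 11591 genes averaging 100 counts or more (grey; 19 genes lie beyond the axis), the lowess curve through them (black) and the 9 genes (red); dotted lines mark 2-fold. Of the 9, 8 lie within 0.34 of the curve, while PIK3R1 lies 1.25 above it.

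Around the 9 genes, 13 lists of pathway genes were examined, 114 genes in all, of which 107 were listed and 102 averaged 10 counts or more. Of these 102, 3 were past 2-fold on the higher side, 2 on the lower and 97 within 2-fold. The 4.90% past 2-fold stand beside the 7.08% of all genes, a share that was 3.88% with a mean of at least 50 counts and 2.16% with at least 500. At a mean of at least 50 counts 3 pathway genes were higher and 1 lower, and at 500 counts 2 were higher and 1 lower. Since the share of all genes depends on the count bound, nothing is read from the difference. The higher ones were BCL2L11, CREB1 and NR4A3 and the lower ones INPP5D and AKT1S1, and all 5 stayed past 2-fold with the GC correction.

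Upstream of PI3K, all 6 measured genes of the insulin and IGF1 receptors and their adaptors were within 2-fold (median -0.05, or 0.08 with the GC correction). GAB1 (-0.41) and IRS1 (-0.34), docking proteins that bring PI3K to receptors, were the farthest from 0. All 4 measured class II and III PI3K genes were within 2-fold (median 0.21, or 0.005 with the GC correction), from PIK3C2B at -0.40 to PIK3C3, the lipid kinase of autophagy and endosomes, at 0.26. The paralogs of the 9 were all within 2-fold too (4 measured, median 0.10, or -0.04 with the GC correction). As only 7.08% of all genes were past 2-fold, nothing is read from the absence of calls in these short lists.

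Among 13 genes that restrain the pathway (median -0.03), 1 was at least 2-fold lower and 12 within 2-fold, where 4.61% of all genes were at least 2-fold lower. Of the 13, 6 had ratios above 0, the highest being PPP2R2A at 0.30, and 7 below, where 52.7% of all genes lay below 0. INPP5D, which encodes SHIP1, a PIP3 phosphatase known mainly from blood cells, had only 8 counts in the PKP2 library and 41 in the vector library, a ratio of -2.12 (interval -3.43 to -1.01). TRIB3, a stress-induced pseudokinase reported to bind AKT, lay just inside 2-fold, with 888 counts in the PKP2 library, against 2074 in the vector library, a ratio of -0.99 (interval -1.10 to -0.87), and -0.65 with the GC correction.

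Downstream of AKT, 1 of 11 substrate genes was at least 2-fold lower and 10 were within 2-fold, with 9 ratios below 0 (median -0.22, or -0.11 with the GC correction), where 52.7% of all genes lay below 0 and 4.61% were at least 2-fold lower. AKT1S1, which encodes PRAS40, a substrate of AKT in the mTOR pathway, had 567 counts in the PKP2 library, against 1763 in the vector library, a ratio of -1.40 (interval -1.54 to -1.26). Of its 31-base stretches, 7.78% also occur in other genes. BAD, the pro-apoptotic substrate, was next at -0.50, and at 0.07 with the GC correction. Of 10 other measured kinases that PDPK1 phosphorylates (median -0.21, or -0.05 with the GC correction), none was past 2-fold, where 7.08% of all genes were. RPS6KA2 (RSK3) lay at -0.99 with 49 counts in the PKP2 library and 115 in the vector library.

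FOXO factors are held out of the nucleus when AKT phosphorylates them. Of 12 measured genes known as FOXO targets (median 0.23, or 0.17 with the GC correction), 1 was at least 2-fold higher and 11 were within 2-fold, with 7 ratios above 0 and 5 below. Of all genes, 47.3% lay above 0 and 2.47% were at least 2-fold higher. BCL2L11, the pro-apoptotic BIM, was at 2.66, with 414 counts in the PKP2 library and 77 in the vector library; 11.0% of its stretches are shared with other genes. KLF6, a zinc finger transcription factor, was the lowest at -0.77, with 434 counts in the PKP2 library and 871 in the vector library. The list thus had its farthest members on both sides.

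On the LKB1 side, all 12 AMPK-related kinases that LKB1 activates were within 2-fold (median -0.04, or 0.04 with the GC correction), with BRSK1 (-0.57) and BRSK2 (-0.53), kinases of neuronal polarity, farthest from 0. With the GC correction they lay at -0.07 and -0.04. All 7 AMPK substrates were within 2-fold (median -0.04), with ULK1, the autophagy kinase, farthest from 0 at -0.51, and at -0.03 with the GC correction. All 4 LKB1 complex partners and all 6 measured genes of AMPK subunits and CAMKK2 were within 2-fold. Only 7.08% of all genes were past 2-fold, so nothing is read from these counts.

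The salt-inducible kinases downstream of LKB1 hold back CRTC coactivators, which work with CREB. CREB1 was 4.36-fold higher in the PKP2 library, with 1964 counts, against 531 in the vector library, a ratio of 2.12 (interval 1.98 to 2.27), and 1.84 with the GC correction. Only 1.56% of its 31-base stretches are shared with another gene. The CRTC genes were within 2-fold, CRTC1 being the farthest from 0 at -0.34, and on the other side of 0, at 0.26, with the GC correction; the median of this list of 4 was -0.02, or 0.31 with the GC correction. Of 11 measured CRTC-CREB target genes, 9 had ratios above 0 and 1 was at least 2-fold higher (median 0.36, or 0.27 with the GC correction), where 47.3% of all genes lay above 0 and 2.47% were at least 2-fold higher. That gene was NR4A3, an orphan nuclear receptor induced by cyclic AMP, with 705 counts in the PKP2 library and 339 in the vector library, a ratio of 1.29 (interval 1.10 to 1.48). INSL4, a placental peptide of the insulin family, was next at 0.91 with only 40 and 25 counts in the PKP2 and vector libraries (interval 0.16 to 1.70). The 2 target genes below 0 were PER1 and FOS. PER1 was at -0.84 (interval -1.08 to -0.61), with 224 counts in the PKP2 library and 474 in the vector library, and at -0.43 with the GC correction. FOS was at -0.31, with only 35 and 51 counts. Per kilobase the list was led by PDE4D, a phosphodiesterase that breaks down cyclic AMP, at 288 CPM per kilobase in the PKP2 library and 215 in the vector library, and CPS1, the first enzyme of the urea cycle, at 264 and 229.8. Both were picked out after their values were seen. Their order rests on the principal transcript, of 2478 bases for PDE4D. In CPM, CPS1 was at 1540 in the PKP2 library and 1338 in the vector library, and PDE4D at 714 and 532.

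**Figure D4:**
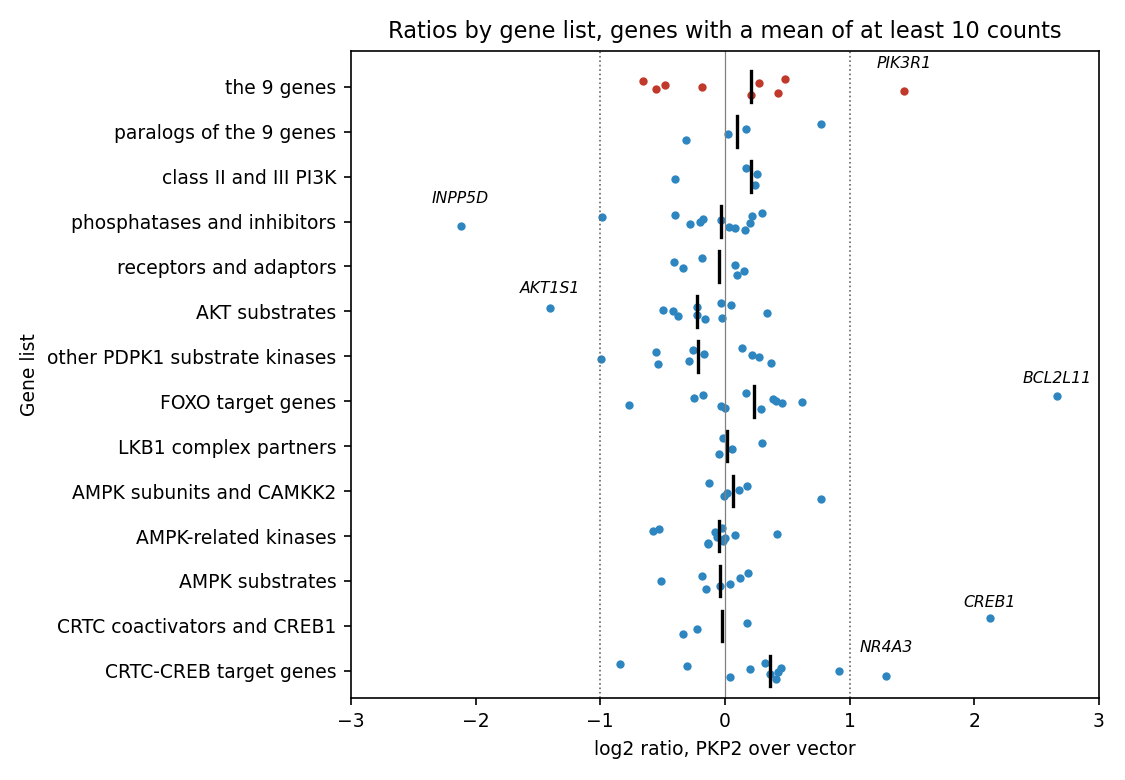
Log2 ratios of PKP2 over vector (horizontal axis) for the 9 genes (red) and 13 pathway lists (blue), 1 point per gene that averaged 10 counts or more; black bars mark medians and dotted lines 2-fold. The named points past 2-fold are PIK3R1, BCL2L11, CREB1 and NR4A3 on the higher side and INPP5D and AKT1S1 on the lower side.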

How the data were processed

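Libraries came from the TruSeq RNA kit of Illumina, per the labels' protocols, a kit that does not mark strand. GRCh37, hg19 and Bowtie 0.12.2 are named in the submitters' processing notes. For the counting program, its annotation and its treatment of shared reads, the sources used here give nothing. The authors deposited raw counts for Ensembl gene IDs, per the file headers, and the values carry no normalization. They are classed as estimated counts, as deposited, because 1 damaged row holds a decimal; that row and 1 row with no value were left out of each file, and no rounding was needed. Of 22965 IDs, 19234 had a symbol in the table of gene names.

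Library sizes were total counts times edgeR's TMM factors (0.991 for PKP2, 1.01 for vector; edgeR 4.0.16, R 4.3.3). CPM is the count over that size on the usual scale; ratios had no pseudocount. Intervals were exact binomial (ratios, shares) or Poisson (levels), at 95%. Intervals cover counting error only, because 1 library per group holds no measure of variation between cultures or preparations. The reads carry no molecular identifiers and are not independent molecules, so the intervals may be too narrow even for counting error. With 1 library per group the quasi-likelihood test cannot be run, and genes that averaged 10 counts or more were called at 2-fold. Transcript length, GC content, exon overlaps and shared 31-base stretches came from GENCODE release 29 (GRCh38), matched by gene ID with no coordinates; the APPRIS principal transcript was used, otherwise the longest. The GC correction subtracted a lowess curve, fitted with statsmodels 0.14.6 at a fraction of 0.3 to genes averaging 100 counts or more. The steps were tested on simulated data. Other tools were SciPy 1.17.1, pandas 2.3.3, scikit-learn 1.9.0, NumPy 2.4.6 and matplotlib 3.10.9 under Python 3.11.15.

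The 9 genes and the lists were chosen with earlier results of these data known, so no list is independent evidence. Beside the 9, the text names their paralogs, CAB39, STRADA, PKP2, genes that overlap a member or share at least 5% of its stretches, each list's genes past 2-fold and the 2 farthest from 0. The AMPK beta and gamma subunits, PDE4D, CPS1, PER1 and FOS were added with their values known. Some genes that this rule takes are not reported here. Alternatives were other scalings (total counts, upper quartile, DESeq2 1.42.0 size factors), 1 or 5 CPM added, a minimum average of 0 or 50 counts, thresholds of 1.5-fold and 3-fold, both corrections for GC content, GC content of the longest transcript, summed loci and other lengths. A minimum average of 500 counts, and the order of levels with the longest transcript, were added after the data were seen.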

Additional observations from a re-analysis of the deposited data

How the results depend on the processing

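PIK3R1 was at least 2-fold higher under every scaling, pseudocount, filter and GC correction tried, between 1.16 (against the 100 genes most like it in length and GC content) and 1.46, and not at a 3-fold threshold, where 0 of the 9 genes were called. At a 1.5-fold threshold 1 gene, STK11, was lower, with 19.7% of all genes past that threshold. The median of the 9 was 0.074 with the GC correction and 0.064 against those 100 genes. With GC content corrected in 3 ways, PIK3CA lay between -0.14 and -0.07 and AKT1 between 0.06 and 0.22, on the other side of 0. Of the 102 pathway genes, 4 were at least 2-fold lower with total counts, 6 at 1.5-fold (and 6 higher), and 1 with 1 or 5 CPM added or at 3-fold. Of all 15991 genes, 802 were lower with total counts, 2060 at 1.5-fold (and 1098 higher), 249 with 1 CPM added, 81 with 5 CPM added and 251 at 3-fold. Over other sets, 5 of the 107 listed pathway genes were lower without a filter, and 1 of those with a mean of at least 50 or 500 counts. Over all genes these were 2800 of 22965 without a filter, 304 of 12864 at 50 counts and 71 of 7454 at 500 counts. Nothing is read from these small counts. The share of all genes past 2-fold was 2.68% with 1 CPM added, 1.17% with 5 CPM added, 20.3% without a filter, 3.88% and 2.16% with a mean of at least 50 and 500 counts, and 2.28% of genes passed 3-fold. The share of PIK3R2 in its family differed by -19.9 percentage points on raw counts, and that of PIK3R3 by -8.74, against -23.4 and -6.21 per kilobase. No other cause of these differences than the settings' own construction was tested. No replicate can be left out, and no paired analysis was possible because each group has 1 library. Low counts, as of INPP5D and INSL4, limit what a ratio shows.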
